A study of Mus musculus with 9 samples.

Results

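The cadherins described here are the members of the family other than Cdh5 (VE-cadherin, the cadherin of endothelial junctions) that were listed by name for this description: Cdh1, Cdh2, Cdh3, Cdh4, Cdh6, Cdh10, Cdh11, Cdh13, Cdh16 and Cdh17. They are 10 of the 56620 genes and assembled loci in the deposited table, and 8 of them were among the 13831 genes tested. The cells were mouse pulmonary microvascular endothelial cells bought from a supplier and described by the labels as primary cells; the labels name no allele or genotype. Room air cells (RA) were kept in 21% O2, hyperoxic cells (HO) in 85% O2, and HO-rWNT5A cells in 85% O2 with 100 ng/ml recombinant WNT5A, a secreted WNT ligand, all for 48 h and with 3 libraries per group. Since no label ties the 3 libraries of a group to separate cultures, every p-value reflects library-to-library spread alone, which may be technical.

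Cadherins are calcium-dependent adhesion proteins whose extracellular repeats bind cadherins on the neighbouring cell. The classical cadherins, divided into type I (E-, N-, P- and R-cadherin, encoded by Cdh1, Cdh2, Cdh3 and Cdh4) and type II (here Cdh6, Cdh10 and Cdh11), bind p120-catenin and beta-catenin through their cytoplasmic tails and are linked through alpha-catenin to actin. T-cadherin (Cdh13) has no tail and is held in the membrane by a GPI anchor, and KSP-cadherin (Cdh16) and LI-cadherin (Cdh17) have a short tail and more extracellular repeats. Endothelial cells are known for VE-cadherin together with N-cadherin and T-cadherin, and epithelia for E-cadherin.

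Levels are FPKM, in which the fragments of a transcript are divided by its length and by the size of the library, summed over the transcripts of a gene and scaled between libraries. They are per length and can therefore be set side by side between genes. Rough depths were 21300000 to 26500000 fragments per library. The labelled cell type was checked against 12 endothelial markers, of which 9 had a mean under 1 FPKM. Cdh5 stood at 0.0543 ± 0.0176 FPKM (SD, n = 9) and Pecam1, another adhesion molecule of endothelium, at 0.093 ± 0.035, so these defining markers were close to absent. Flt1, a VEGF receptor, and Emcn, an endothelial sialomucin, were present at 37.9 ± 4.59 and 10.1 ± 1.12 FPKM (SD, n = 9). The 8 mural (smooth muscle and pericyte) markers summed to 2410 to 3310 FPKM per library, led by smooth muscle actin (Acta2, 1570 ± 144 FPKM). Of these, 6 had a mean of at least 5 FPKM, but Rgs5 (0.757 ± 0.155) and Myh11 (0.236 ± 0.0398) were under 1 FPKM. The 7 epithelial markers summed to 133 to 173 FPKM. Of these, 5 had a mean of at least 5 FPKM, while Epcam had 1.88 ± 0.532 and Esrp1 0.852 ± 0.134 (SD, n = 9). In bulk RNA, fewer cells of a type and less RNA per cell cannot be told apart. The share of FPKM taken by small structural RNA was 20.2% to 28.1%, lowest in the HO 3 library, which also had the highest share from transcripts with a retained intron (7.09%, against 5.26% to 6.58% in the other libraries).

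The cadherin mRNA of these cells came mainly from 3 genes. Cdh6, Cdh11 and Cdh2 together made up 92.1% to 94.3% of the summed FPKM of the 10 genes in every library. Means over the 9 libraries were 121 ± 7.32 FPKM for Cdh6, 111 ± 12.1 for Cdh11 and 63.0 ± 6.8 for Cdh2 (SD, n = 9). These placed them at ranks 286, 328 and 671 among 21911 protein-coding genes. The ranges of Cdh6 and Cdh11 overlapped, and Cdh6 was the higher in 7 of 9 libraries. Their difference within libraries was not tested. Cdh11 exceeded Cdh2 by 1.76-fold with no overlap, and Cdh2 exceeded the next gene, Cdh16, by 10.1-fold. Cdh16 (6.22 ± 1.06 FPKM), Cdh1 (3.78 ± 0.597), Cdh13 (3.59 ± 0.563), Cdh10 (3.53 ± 0.567) and Cdh3 (2.86 ± 0.219) followed, with overlapping ranges between neighbours in this order. Cdh4 (0.814 ± 0.153) and Cdh17 (0.148 ± 0.0586) stood below all others without overlap and had a mean under 1 FPKM, so they were not tested; Cdh3 was the lowest gene above that minimum. By class, the 3 type II genes held 68.5% to 77.3% of the summed FPKM, the 4 type I genes 19.4% to 27.9%, GPI-anchored Cdh13 0.847% to 1.38%, and Cdh16 with Cdh17 1.44% to 2.56%. The sum over the 10 genes was 324 ± 7.8 FPKM in RA, 310 ± 7.33 under HO and 313 ± 9.8 under HO-rWNT5A (SD, n = 3).

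**Figure D1:**
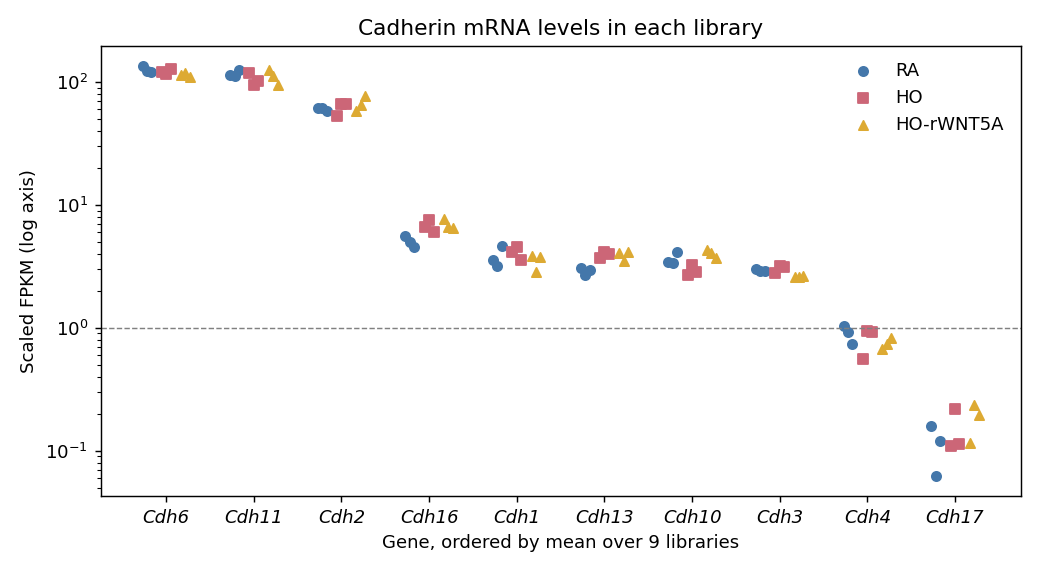
Scaled FPKM of each of the 10 cadherins (log axis) in the 9 libraries, one point per library, by group; the dashed line marks the mean of 1 FPKM needed for testing. Cdh6, Cdh11 and Cdh2 lie above 50 FPKM in every library, 5 genes lie between 2.58 and 7.64 FPKM, and Cdh4 and Cdh17 lie lowest.

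The comparisons asked whether hyperoxia, alone or with WNT5A, changed these levels. HO and HO-rWNT5A were each compared with the same RA libraries, and HO-rWNT5A was also compared with the same HO libraries, so the 3 comparisons are not independent. Between HO and RA, 0 of the 8 tested cadherins passed limma's adjusted p of 0.05, where 1.97% of all genes tested did (1.21% higher and 0.766% lower); 3 had an unadjusted p under 0.05 (18.1% of all genes tested). Between HO-rWNT5A and HO, 0 of 8 passed (0.00723% of all genes tested) and 1 had an unadjusted p under 0.05 (9.2%). Between HO-rWNT5A and RA, 2 of 8 passed, both higher (4.26% of all genes tested passed, 2.39% as higher and 1.87% as lower), and 3 had an unadjusted p under 0.05 (20.9%). The 2 were Cdh13 and Cdh16. Median log2 fold changes over the 8 genes were 0.032, 0.0098 and 0.006 in the 3 comparisons, beside -0.0039, 0.0019 and -0.0035 over all genes tested. All fold changes were taken on log2(FPKM + 1), a scale that makes changes of low genes look smaller than they are.

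**Figure D2:**
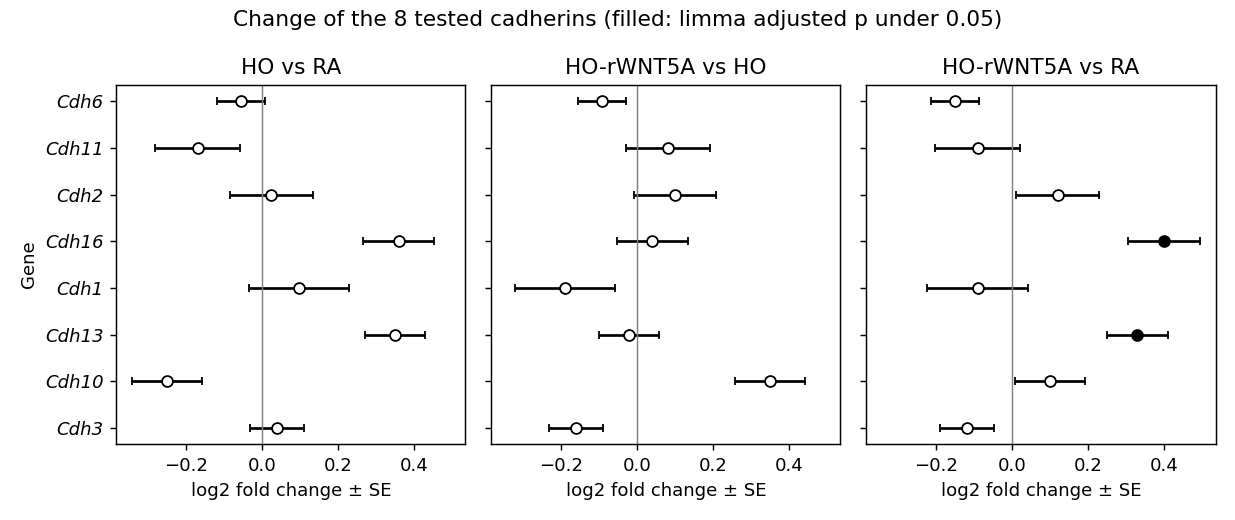
Log2 fold change (log2(FPKM + 1) scale) with its standard error for the 8 tested cadherins in each of the 3 comparisons; filled points passed limma's adjusted p of 0.05. The filled points are Cdh16 and Cdh13 in HO-rWNT5A vs RA, at 0.40 and 0.33, and both genes have similar estimates, unfilled, in HO vs RA.

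Cdh6, the type II cadherin first described in kidney (ENSMUSG00000039385.5, chr15:13028701-13173675, minus strand, GRCm38), was the most abundant. It had 134, 124 and 121 FPKM in the RA libraries, 121, 117 and 128 under HO and 115, 118 and 109 under HO-rWNT5A. All HO-rWNT5A libraries lay below all RA libraries, and the HO libraries overlapped both. The log2 fold change of HO-rWNT5A vs RA was -0.15 ± 0.0625 (SE), with an adjusted p of 0.211; that of HO vs RA was -0.055 ± 0.0625, with an adjusted p of 0.686. Neither passed.

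Promoter windows from RefSeq (GRCm38.p6, 250 bases before to 50 bases after the annotated start) matched 2 of the 10 genes, Cdh6 and Cdh10, both type II genes on chromosome 15, whose levels were far apart (121 against 3.53 FPKM). They are shown because the annotated start lies at the start of the main expressed transcript of Cdh6 but not of Cdh10. The Cdh6 window is chr15:13173626-13173925 on the minus strand, and the Cdh10 window is chr15:18820079-18820378 on the plus strand. Capitals mark GGGCGG, searched on both strands together with TATAAA and CACCTG.
Cdh6: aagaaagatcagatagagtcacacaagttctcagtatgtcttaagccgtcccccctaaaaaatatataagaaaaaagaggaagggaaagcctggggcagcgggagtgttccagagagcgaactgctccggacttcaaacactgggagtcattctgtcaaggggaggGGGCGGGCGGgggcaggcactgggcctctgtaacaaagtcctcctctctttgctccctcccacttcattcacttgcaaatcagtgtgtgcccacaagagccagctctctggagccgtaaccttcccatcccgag
Cdh10: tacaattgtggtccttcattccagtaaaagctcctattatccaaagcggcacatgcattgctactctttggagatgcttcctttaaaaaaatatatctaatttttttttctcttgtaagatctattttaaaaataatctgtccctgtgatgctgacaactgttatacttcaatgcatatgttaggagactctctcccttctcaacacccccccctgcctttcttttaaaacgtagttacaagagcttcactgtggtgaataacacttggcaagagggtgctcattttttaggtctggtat
The Cdh6 window held 2 overlapping GGGCGG matches, starting at bases 167 and 171 of the window. The main Cdh6 transcript, Cdh6-201, started within 1 base of the RefSeq start. GGGCGG was present in 35.7% of the 32851 windows of this length. The Cdh10 window held no match to any of the 3 motifs; TATAAA was present in 13.6% and CACCTG in 20.2% of all windows. Its GC content was 37.7% with 2 CpG dinucleotides, against 53.0% with 8 for Cdh6 and medians of 52.7% and 7 over all windows. The main Cdh10 transcript, Cdh10-202, began 1381 bases upstream of that start and gave 79.4% of the gene's FPKM. Cdh10-201, the transcript that begins at the RefSeq start, had 0.0342 to 0.0651 FPKM in 8 libraries and 1.11 in HO-rWNT5A 2.

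Cdh11 (ENSMUSG00000031673.6, chr8:102632095-102785642, minus strand) encodes OB-cadherin, a type II cadherin of osteoblasts and other mesenchymal cells. Its level was 115, 112 and 125 FPKM in RA, 119, 94.3 and 101 under HO and 126, 112 and 94.7 under HO-rWNT5A. The 3 groups overlapped, and HO-rWNT5A held both the highest and a near-lowest library. The adjusted p was 0.448 between HO and RA, 0.857 between HO-rWNT5A and HO, and 0.694 between HO-rWNT5A and RA. The interval of the HO vs RA difference ran from -0.42 to 0.074 on the log2 scale (95%).

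Cdh10 (ENSMUSG00000022321.15, chr15:18818947-19014236, plus strand), a type II cadherin known mainly from brain, was lowest in HO. Its RA libraries had 3.46, 3.36 and 4.16 FPKM, its HO libraries 2.68, 3.25 and 2.83, and its HO-rWNT5A libraries 4.28, 4.04 and 3.68. All HO libraries lay below all RA and all HO-rWNT5A libraries, while RA and HO-rWNT5A overlapped. The mean was 20.3% lower in HO than in RA (log2 fold change -0.25 ± 0.0924, adjusted p = 0.192). It was 37.0% higher in HO-rWNT5A than in HO (0.35 ± 0.0924, adjusted p = 0.492). Neither difference passed, and both use the same 3 HO libraries. In HO-rWNT5A 2, the transcript Cdh10-201 gave 1.11 of the 4.04 FPKM. For the main transcript, Cdh10-202, HO-rWNT5A (3.46, 2.48 and 3.22 FPKM) overlapped HO (2.27, 2.64 and 2.31). Its log2 fold change between them was 0.25 ± 0.12 (limma adjusted p = 0.746). The gene rested on roughly 200 to 350 fragments per library, a counting error of 7.07% to 5.35%.

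Among the type I genes, Cdh2 (ENSMUSG00000024304.14, chromosome 18), which encodes the N-cadherin of mesenchymal and neural cells, had 62.0, 61.3 and 58.4 FPKM in RA, 53.3, 66.7 and 65.7 under HO and 57.7, 64.8 and 77.2 under HO-rWNT5A. The libraries spread more within HO and HO-rWNT5A than within RA, and the groups overlapped. The adjusted p was 0.93 between HO and RA, 0.813 between HO-rWNT5A and HO, and 0.572 between HO-rWNT5A and RA. A transcript with a retained intron, Cdh2-203, gave 12.4% to 18.4% of the gene's FPKM. Counted over protein-coding transcripts alone, the mean level was 53.5 FPKM.

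Cdh1 (ENSMUSG00000000303.12, chr8:106603351-106670246, plus strand), the E-cadherin gene, was low, with 3.55, 3.17 and 4.62 FPKM in RA, 4.17, 4.55 and 3.55 under HO and 3.82, 2.82 and 3.78 under HO-rWNT5A. The groups overlapped in each comparison, with adjusted p-values of 0.691 to 0.743. The ratio of N-cadherin to E-cadherin mRNA was 16.5 ± 3.45 in RA, 15.3 ± 2.92 under HO and 19.5 ± 4.01 under HO-rWNT5A (SD, n = 3), with overlapping ranges.

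Cdh3 (chr8:106510891-106557297, plus strand), the P-cadherin gene, ends 46.1 kb before the start of Cdh1. It had 3.02, 2.88 and 2.87 FPKM in RA, 2.8, 3.17 and 3.14 under HO and 2.58, 2.61 and 2.66 under HO-rWNT5A. The HO-rWNT5A libraries were close together and lay below every other library. The mean was 13.8% lower than in HO (adjusted p = 0.543) and 10.4% lower than in RA (adjusted p = 0.392), and neither difference passed. Cdh4, the R-cadherin gene, was not tested and had 1.03, 0.929 and 0.737 FPKM in RA, 0.554, 0.942 and 0.915 under HO and 0.666, 0.736 and 0.821 under HO-rWNT5A, with overlapping groups.

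T-cadherin mRNA was higher in hyperoxia with WNT5A than in room air. Cdh13 (ENSMUSG00000031841.19, chr8:118283733-119324921, plus strand) encodes a receptor for adiponectin and low-density lipoprotein. Its libraries had 3.06, 2.67 and 2.96 FPKM in RA, 3.72, 4.16 and 4.01 under HO and 4.05, 3.51 and 4.13 under HO-rWNT5A. All 6 libraries in 85% O2 lay above all 3 in room air, and HO and HO-rWNT5A overlapped. The mean of HO-rWNT5A was 34.4% above RA (log2 fold change 0.33 ± 0.0797, adjusted p = 0.0489), which passed narrowly. The mean of HO was 36.7% above RA (0.35 ± 0.0797, adjusted p = 0.0569), which did not. HO-rWNT5A and HO differed by -0.021 ± 0.0797 (adjusted p = 0.959), with an interval of -0.20 to 0.16. Leaving out any RA library, any HO-rWNT5A library or the HO 1 library ended the HO-rWNT5A vs RA call, with adjusted p-values of 0.0524 to 0.159 and log2 fold changes of 0.29 to 0.39. Of all alternatives, 13 ended the call and 7 kept it. The gene rested on roughly 210 to 320 fragments per library, a counting error of 6.9% to 5.59%. The main transcript, Cdh13-201, gave 70.0% of the FPKM, and over protein-coding transcripts alone the adjusted p was 0.106.

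KSP-cadherin mRNA was also higher in hyperoxia with WNT5A than in room air. Cdh16 (ENSMUSG00000031881.6, chr8:104601911-104624396, minus strand) is known mainly from the epithelium of kidney tubules. It had 5.53, 4.96 and 4.55 FPKM in RA, 6.63, 7.5 and 6.01 under HO and 7.64, 6.65 and 6.49 under HO-rWNT5A. Again all 6 libraries in 85% O2 lay above the 3 in room air. The same held for 2 of the 8 tested cadherins, Cdh13 and Cdh16, and for 7.4% of all genes tested; 0 of the 8 had all 6 below room air (6.24% of all genes tested). The mean of HO-rWNT5A was 38.2% above RA (log2 fold change 0.40 ± 0.0939, adjusted p = 0.0441), and that of HO 34.0% above RA (0.36 ± 0.0939, adjusted p = 0.0857). HO-rWNT5A vs HO gave 0.04 ± 0.0939 (adjusted p = 0.926), with an interval of -0.17 to 0.25. The HO-rWNT5A vs RA call was lost when any RA library, any HO-rWNT5A library or HO 1 was left out (adjusted p of 0.0543 to 0.141, log2 fold change 0.34 to 0.46). Of all alternatives, 9 ended this call and 12 kept it. Without HO 3, HO vs RA passed as well (0.42, adjusted p = 0.0412). In that setting the number of all genes that passed in HO vs RA also rose, from 273 to 706.

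**Figure D3:**
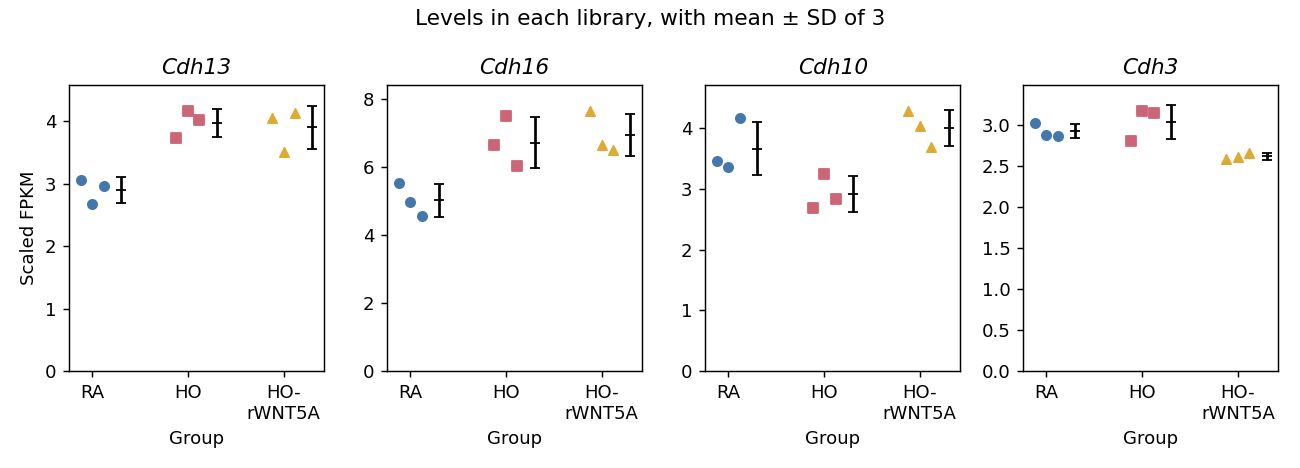
Scaled FPKM of Cdh13, Cdh16, Cdh10 and Cdh3 in each library (points) with the mean and SD of the 3 libraries of a group (bars), each axis starting at 0. Cdh13 and Cdh16 are higher in all 6 libraries in 85% O2 than in the 3 in room air, Cdh10 is lowest in HO, and Cdh3 is lowest in HO-rWNT5A.

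Markers of kidney tubule epithelium were looked at beside Cdh16. Of the 9 markers, 5 were tested; Umod and Aqp2, which mark differentiated segments, were at 0 in all libraries. The list summed to 81.9 to 83.9 FPKM in RA, 80.1 to 88.1 under HO and 90.6 to 96.3 under HO-rWNT5A. Pax2 is a transcription factor of kidney development. It had 32.7 ± 0.819 FPKM in RA, 35.8 ± 3.2 under HO and 43.8 ± 0.779 under HO-rWNT5A (SD, n = 3). The HO libraries overlapped RA, and all HO-rWNT5A libraries lay above both. Pax2 rose in HO-rWNT5A against RA (log2 fold change 0.41 ± 0.0643, limma adjusted p = 0.00979). Without RA 1 the adjusted p was 0.054. Neither HO vs RA (0.12 ± 0.0643, adjusted p = 0.35) nor HO-rWNT5A vs HO (0.29 ± 0.0643, adjusted p = 0.43) passed. Pax8, a related factor, had 28.5 ± 1.39, 24.3 ± 1.04 and 26.5 ± 0.995 FPKM in RA, HO and HO-rWNT5A, with 0 comparisons passed (adjusted p of 0.0874 to 0.559). In HO-rWNT5A vs RA the median log2 fold change was -0.27 for 6 tested mural markers and -0.29 for 3 tested fibroblast markers. In either list 0 passed, and 3 and 2 had an unadjusted p under 0.05. Of all genes tested, 4.26% passed in that comparison and 20.9% had an unadjusted p under 0.05. The part of kidney tubule, mural or fibroblast cells in the Cdh13 and Cdh16 differences was not tested.

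Cdh16 has 14 annotated transcripts, of which Cdh16-207, Cdh16-208, Cdh16-211 and Cdh16-214 were listed at 0 in all 9 libraries. Cdh16-204, a protein-coding transcript of 18 exons, gave 71.0% of the gene's FPKM. It had 2.64, 2.78 and 3.37 FPKM in RA, 4.5, 6.26 and 4.94 under HO and 5.83, 5.13 and 4.3 under HO-rWNT5A. All libraries in 85% O2 lay above those in room air, with a log2 fold change of 0.66 ± 0.142 in HO (adjusted p = 0.216) and 0.63 ± 0.142 in HO-rWNT5A (adjusted p = 0.189). Neither passed over the 26158 transcripts tested. Cdh16-201 took 30.5%, 27.6% and 12.8% of the gene in RA, 24.9%, 8.49% and 5.01% under HO, and 10.3%, 9.11% and 11.6% under HO-rWNT5A. How reads were divided between such similar transcripts was estimated by the authors' software, so their shares are less certain than the sum. Of the 48 transcripts of the 10 genes, 12 reached a mean of 1 FPKM and 0 of those passed in any comparison, where 0.0153%, 0.0115% and 0.0382% of all transcripts tested did in HO vs RA, HO-rWNT5A vs HO and HO-rWNT5A vs RA. Cdh17, the LI-cadherin of intestine, had 0.158, 0.0624 and 0.119 FPKM in RA, 0.109, 0.219 and 0.114 under HO and 0.115, 0.237 and 0.196 under HO-rWNT5A. It rested on roughly 5 to 18 fragments per library, a counting error of 44.7% to 23.6%, and the groups overlapped.

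**Figure D4:**
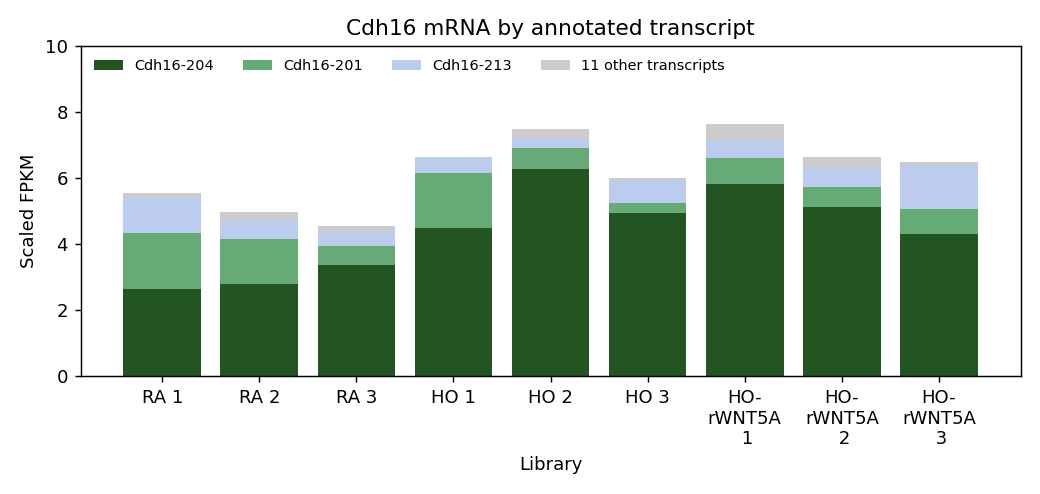
Scaled FPKM of Cdh16 in each library, stacked by annotated transcript, with the 11 least abundant transcripts added together. Cdh16-204 is the largest part in every library and is higher in the 6 libraries in 85% O2 than in the 3 in room air, while Cdh16-201 varies within groups.

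Counted by separation alone, 3 of 8 tested cadherins did not overlap between HO and RA (21.4% of all genes tested, 11.3% higher and 10.1% lower): Cdh13 and Cdh16 were higher in HO and Cdh10 lower. Between HO-rWNT5A and HO it was 2 of 8 (13.0% of all genes tested, 6.27% higher and 6.7% lower), with Cdh10 higher and Cdh3 lower. Between HO-rWNT5A and RA it was 4 of 8 (32.8%, 16.3% higher and 16.5% lower), with Cdh13 and Cdh16 higher and Cdh3 and Cdh6 lower. Within-group spread on the log2 scale was smallest for Cdh3 (SD 0.0478) and Cdh6 (0.0661) and largest for Cdh1 (0.188), against a median of 0.108 over all genes tested.

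The protein-coding genes whose pattern over the 9 libraries was most like that of Cdh13, by root mean square difference of centred log2 values, were Glis2 (0.047), Syt11 (0.0516) and Trim7 (0.0558). Glis2 had 23.0 ± 0.97 FPKM in RA, 28.6 ± 2.46 under HO and 28.4 ± 1.68 under HO-rWNT5A (SD, n = 3). Those most like Cdh16 were Mepce (0.0617), Dyrk3 (0.0686) and Gprc5b (0.0713). Mepce had 9.97 ± 0.501, 12.7 ± 1.03 and 13.5 ± 0.687 FPKM in the same order.

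The intracellular partners of the classical cadherins were abundant. Ctnnb1 (beta-catenin) had a mean of 282 ± 17.4 FPKM, Ctnna1 (alpha-catenin) 111 ± 7.19, Jup (plakoglobin) 85.7 ± 5.89 and Ctnnd1 (p120-catenin) 78.5 ± 3.7 (SD, n = 9). None of these 4 passed in any comparison in limma's test, with adjusted p-values of 0.398 to 0.926. Of 13 catenins and actin linkers, 11 were tested; 0 passed in HO vs RA, 0 in HO-rWNT5A vs HO and 1, higher, in HO-rWNT5A vs RA, with 3, 1 and 4 at an unadjusted p under 0.05. The list's median log2 fold changes were 0.004, 0.012 and -0.048 in these comparisons, against the all-gene medians given above. Of all genes tested, 1.97%, 0.00723% and 4.26% passed in these comparisons, and 18.1%, 9.2% and 20.9% had an unadjusted p under 0.05. The gene of the list that passed was Ajuba, a LIM protein that binds alpha-catenin. It had 21.2, 21.2 and 21.1 FPKM in RA, 24.3, 26.6 and 24.5 under HO and 29.8, 27.1 and 30.0 under HO-rWNT5A. The 3 groups did not overlap, with RA lowest and HO-rWNT5A highest. The log2 fold change of HO-rWNT5A vs RA was 0.43 ± 0.058 (adjusted p = 0.00534); those of HO vs RA (0.24, adjusted p = 0.071) and HO-rWNT5A vs HO (0.20, adjusted p = 0.5) did not pass. Pkp4, a relative of p120-catenin that was chosen after its values were seen, had 16.0, 15.4 and 15.5 FPKM in RA, 12.3, 11.7 and 13.9 under HO and 13.0, 13.3 and 12.8 under HO-rWNT5A. All 6 libraries in 85% O2 lay below the 3 in room air, but neither HO vs RA (-0.29 ± 0.0642, adjusted p = 0.0506) nor HO-rWNT5A vs RA (-0.25 ± 0.0642, adjusted p = 0.0598) passed. Among the 4 nectins, adhesion proteins that sit beside cadherins in junctions, 3 were tested and 1 passed in HO-rWNT5A vs RA: Nectin2 rose from 18.9 ± 0.928 to 23.3 ± 0.71 FPKM (0.29 ± 0.0646, adjusted p = 0.0377), a call lost without any single RA or HO-rWNT5A library (adjusted p of 0.0815 to 0.135). The nectin medians were 0.088, -0.0093 and -0.032 in the order used above.

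Transcriptional repressors of Cdh1 were present beside its low level. Whether they bear on that level was not tested. Zeb2 had 32.9 ± 3.04 FPKM, Snai2 14.3 ± 1.74, Zeb1 11.4 ± 1.08, Twist1 2.34 ± 0.295 and Snai1 1.29 ± 0.343 (SD, n = 9). Of the 9 repressors 8 were tested and 0 passed in any of the 3 comparisons. At an unadjusted p under 0.05 there were 2 in HO vs RA (18.1% of all genes tested). There was 1 in HO-rWNT5A vs HO (9.2%) and 1 in HO-rWNT5A vs RA (20.9%). The median log2 fold changes of the 8 were -0.16, 0.046 and -0.038 in that order. Snai1 came nearest, with 0.762, 0.827 and 1.11 FPKM in RA, 1.48, 1.86 and 1.42 under HO and 1.26, 1.47 and 1.38 under HO-rWNT5A (HO vs RA 0.44 ± 0.106, adjusted p = 0.0633). Zeb2 had 35.5 ± 1.85, 29.9 ± 2.51 and 33.3 ± 1.67 FPKM in RA, HO and HO-rWNT5A, with an adjusted p of 0.112 for HO vs RA. The 3 epithelial activators (Grhl2, Ovol1 and Ovol2) were each under 1 FPKM and not tested.

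**Figure D5:**
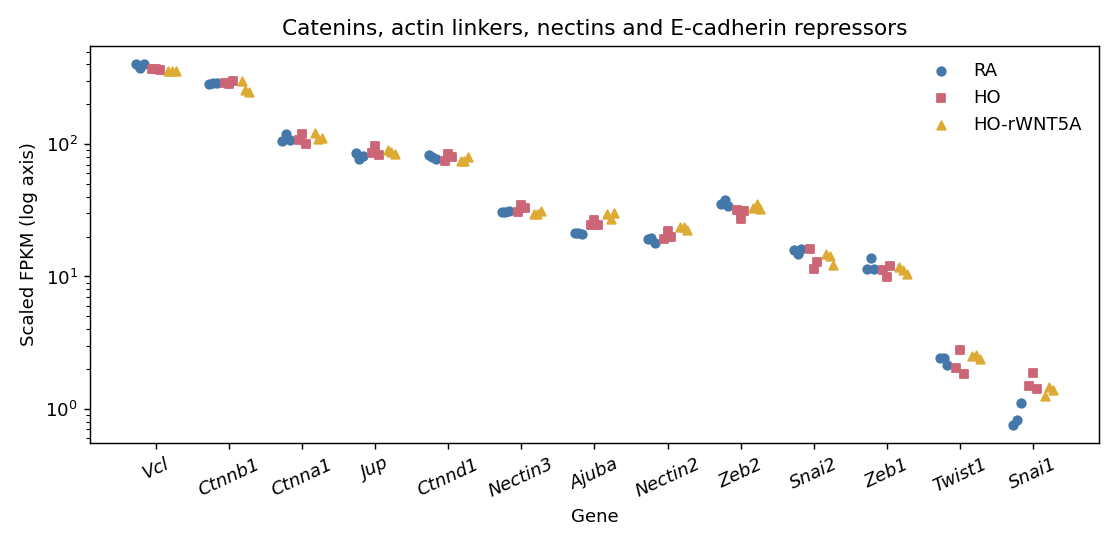
Scaled FPKM (log axis) in each library for catenins, actin linkers, nectins and repressors of Cdh1, one point per library. Ajuba and Nectin2 are higher in HO-rWNT5A than in RA, Snai1 is higher in HO than in RA without passing the test, and the 4 catenins overlap between groups.

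At some places on chromosomes 8 and 15, a cadherin gene with a high level and one with a near-zero level were neighbours in the order of the family. Of 23 cadherin genes named Cdh, 8 are on chromosome 8, among them 5 of the 10 described here. Along that chromosome the order is Cdh8, Cdh11, Cdh5, Cdh16, Cdh3, Cdh1, Cdh13 and Cdh15. Cdh11, at 111 FPKM, lies between Cdh8 (0.00148 FPKM) and Cdh5 (0.0543 FPKM), at gaps of 3220 and 1320 kb. Cdh16, Cdh3, Cdh1 and Cdh13, in a row, had more similar levels of 6.22, 2.86, 3.78 and 3.59 FPKM. On chromosome 15, Cdh9, listed at 0 in all 9 libraries, lies between Cdh6 at 121 FPKM and Cdh10 at 3.53 FPKM. No exonic base of the 10 genes is shared with another annotated gene.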

How the data were processed

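RNA was measured in 9 libraries. Libraries of total RNA were read as paired ends, per the labels' protocols, and reads were trimmed with Skewer 0.2.2, aligned with STAR 2.5.3a and assembled with StringTie 1.3.1. The submitters' processing notes list the builds hg38 and mm10; the identifiers are those of mouse. The authors deposited FPKM for 143043 transcripts. Of the Ensembl transcripts, 99.36% matched GENCODE M21 (GRCm38), which gave names and coordinates. FPKM was summed per gene and each library was scaled by its median ratio. Depth was estimated from the FPKM worth of 1 fragment and is rough; no counts could be recovered, so no count test was run. Genes whose mean reached 1 FPKM were tested on log2(FPKM + 1) with limma 3.58.1 in R 4.3.3 over all 9 libraries (variance trend, two-sided, Benjamini-Hochberg, threshold 0.05). Counting errors are 1 over the square root of the rough fragment number and cover counting alone. The fit was tested on simulated data. Per comparison it called 70 to 79 of 100 genes changed 1.5-fold and 93 to 96 of 100 changed 2-fold. It also called 3 to 15 unchanged genes, and smaller changes were not simulated. Alternatives were pseudocounts, filters, scalings, variance models, a replicate block, protein-coding transcripts alone and each library left out. The transcript fit and the comparison of 6 libraries with 3 were added after seeing the data.

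The cadherins and the gene lists were chosen with earlier results of these data known. All 10 cadherins are named; of other lists, genes that passed, otherwise the 2 most abundant, plus 4 catenins and 5 repressors whatever their value. Pattern likeness was taken for the 2 members with the smallest F-test p. Defining markers of cell types (Pecam1, Cdh5, Pax8, Umod, Aqp2, Msln, Upk3b) and the epithelial activators were named after their values were seen.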

Additional observations from a re-analysis of the deposited data

How the results depend on the processing

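Of 8 tested cadherins, the number past the threshold in HO-rWNT5A vs RA was 2. It was 1 with FPKM as deposited, a pseudocount of 5 or protein-coding transcripts alone, and 0 with equal totals. With no filter it was 0 of 10 tested. With a minimum mean of 5 FPKM it was 1 of 4 tested, and Cdh13 was below that minimum. Leaving out 1 library gave 0 to 2: 0 without any RA or HO-rWNT5A library or HO 1, and 2 without HO 2 or HO 3. In HO vs RA it was 0, and 0 to 1 with a library left out; in HO-rWNT5A vs HO it was 0 throughout. With the replicate number as a block, 1 cadherin passed in HO-rWNT5A vs RA (Cdh16), and all genes passed numbered 116 in HO vs RA and 393 in HO-rWNT5A vs RA; correlations between same-numbered libraries were -0.118 to 0.28, and the labels give no pairing. Over protein-coding transcripts alone the mean level of Cdh2 was 53.5 and that of Cdh13 2.51 FPKM. The call of Nectin2 was lost in 9 and that of Pax2 in 2 of 21 alternatives, and that of Ajuba in 0. Estimates near 0 that were not called changed sign. For Cdh2 in HO vs RA they became -0.038 on FPKM as deposited, and -0.0086 with equal totals. For Cdh3 in HO vs RA it became -0.0065 on FPKM as deposited. Leaving out 1 library gave log2 fold changes of -0.034 to 0.13 for Cdh2 in HO vs RA. In HO-rWNT5A vs HO the range was -0.0099 to 0.20 for Cdh2, -0.015 to 0.19 for Cdh11, -0.056 to 0.038 for Cdh13 and -0.026 to 0.11 for Cdh16. In HO-rWNT5A vs RA it was -0.18 to 0.032 for Cdh1 and -0.19 to 0.016 for Cdh11. The cause of these changes was not tested. Over all genes, the count past the threshold was 273 in HO vs RA (2 to 706 with a library left out, 56 to 327 otherwise), 1 in HO-rWNT5A vs HO (1 to 27, and 0 to 3) and 589 in HO-rWNT5A vs RA (124 to 1018, and 222 to 1330). The split of higher against lower moved from 167 and 106 to 103 and 179 in HO vs RA, and from 331 and 258 to 209 and 615 in HO-rWNT5A vs RA, when FPKM was used as deposited; with equal totals it was 26 and 30, and 93 and 164. Cdh4 and Cdh17 were left out by the minimum mean of 1 FPKM; with no filter all 10 cadherins were tested in limma and 0 passed in each comparison (3, 2 and 3 at an unadjusted p under 0.05 in HO vs RA, HO-rWNT5A vs HO and HO-rWNT5A vs RA).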

Other observations

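More distant members of the cadherin superfamily were also expressed. Fat1, a very large cadherin of cell borders, had 150 ± 11.2 FPKM in RA, 169 ± 14.3 under HO and 168 ± 10.6 under HO-rWNT5A (SD, n = 3), above each of the 10 cadherins in mean level per length. It led a list of 12 FAT, Dachsous, CELSR and calsyntenin genes, of which 8 were tested and 0 passed in limma's test (2, 1 and 1 at an unadjusted p under 0.05 in HO vs RA, HO-rWNT5A vs HO and HO-rWNT5A vs RA). The second in that list was Clstn1, a calsyntenin, at 11.5 ± 1.03 FPKM (SD, n = 9). Of 11 non-clustered protocadherins, 6 were tested and 0 passed (1, 0 and 2 at an unadjusted p under 0.05). Of all genes tested, 18.1%, 9.2% and 20.9% had an unadjusted p under 0.05 in the 3 comparisons. Pcdh1 had 51.0 ± 4.33 and Pcdh7 32.6 ± 3.14 FPKM (SD, n = 9), both below Cdh2. Of 13 other genes named Cdh, 11 had a mean under 1 FPKM; Cdh23, the cadherin of hair-cell tip links, had 2.47 ± 0.322 and Cdh24 1.47 ± 0.217 FPKM, and 0 passed (0, 0 and 1 at an unadjusted p under 0.05).

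The desmosome list was mostly low: 10 of 13 genes had a mean under 1 FPKM and 4 desmosomal cadherins were listed at 0 in all 9 libraries. The plakophilins Pkp2 (23.4 ± 1.99 FPKM) and Pkp1 (13.0 ± 1.87) were present, and 0 of 3 tested genes passed (0, 0 and 1 at an unadjusted p under 0.05). All 11 genes of cadherin shedding and turnover were tested and 0 passed (3, 1 and 2 at an unadjusted p under 0.05). The most abundant were the trafficking GTPases Arf6 (57.5 ± 4.77 FPKM) and Rab11a (49.2 ± 5.07). Among markers of other cell types, the mural, fibroblast, epithelial and leukocyte lists had 0 genes past the threshold in each comparison. Of 6 tested mural genes 1, 0 and 3 had an unadjusted p under 0.05, with median log2 fold changes of -0.20, 0.0035 and -0.27 in HO vs RA, HO-rWNT5A vs HO and HO-rWNT5A vs RA. Of 3 tested fibroblast genes it was 0, 0 and 2, with medians of -0.18, -0.085 and -0.29. Of 6 tested epithelial genes it was 2, 0 and 1, with medians of 0.07, -0.077 and 0.10, and the 1 tested leukocyte gene, Cd68, gave 0.0067, -0.037 and -0.03. The medians over all genes tested were -0.0039, 0.0019 and -0.0035. Of all genes tested, 18.1%, 9.2% and 20.9% had an unadjusted p under 0.05, and 1.97%, 0.00723% and 4.26% passed. Wt1, a transcription factor of mesothelium and kidney, fell from 27.2 ± 2.31 FPKM in RA to 20.3 ± 1.94 in HO (SD, n = 3; log2 fold change -0.41 ± 0.0775, adjusted p = 0.0336), a call that was lost in 11 of 21 alternatives, among them leaving out any RA library, HO 2 or any HO-rWNT5A library (adjusted p of 0.0521 to 0.11). The other mesothelial markers, Msln and Upk3b, had a mean under 1 FPKM.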
